A study of Mus musculus with 18 samples.

Results

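The genes described here encode 4 connexins of the epidermis, Gja1, Gjb2, Gjb5 and Gjb6. They were chosen by symbol, and each of the 4 matched 1 of 14521 named genes in the deposited table of 14542 entries. Their RNA was measured in skin and skin tumours of 6 female SKH-1E Hairless littermates. SKH-1E is an outbred strain that lacks functional Hr, a regulator of the hair cycle, and develops skin tumours under ultraviolet light. All mice received chronic low-dose ultraviolet light, UVB together with UVA, from solar simulators, starting at 3 months of age. Tissue was taken after irradiation had ended. Each mouse (numbers 2, 3, 7, 8, 9 and 10) gave 1 library of each of 3 tissues. These were skin without a lesion from the irradiated area (CHR), papilloma (PAP), a benign epidermal tumour, and carcinoma of squamous cells (SCC). Thus n = 6 in each group and every comparison could be made within mice. The reference tissue CHR had itself been irradiated, and unirradiated skin was not analysed here. CHR was whole skin, while the tumours were mostly tumour cells by histology, so the groups also differ in the tissue they hold.

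Connexins assemble in sixes into a channel in the plasma membrane, and channels of neighbouring cells dock to form a gap junction through which ions and small metabolites pass. Keratinocytes carry a changing set of them. Connexin 43, encoded by Gja1, is found from the basal layer upwards, connexins 26 and 30, encoded by Gjb2 and Gjb6, are scarce in resting interfollicular epidermis of the body and are induced in wounded or hyperproliferative epidermis, and the product of Gjb5 belongs to differentiating layers. Mutations in GJB2 and GJB6 in humans cause deafness and keratinising skin disorders.

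Gja1 (ENSMUSG00000050953.10) lies on chromosome 10, from 56377330 to 56402513 on the plus strand of GRCm38. Gjb2 (ENSMUSG00000046352.7) and Gjb6 (ENSMUSG00000040055.9) are neighbours on chromosome 14, at 57098600 to 57104702 and 57123303 to 57133611, both on the minus strand and 18600 bases apart. Gjb5 (ENSMUSG00000042357.2) lies on the minus strand of chromosome 4, from 127354809 to 127358181. None of the 4 overlaps another annotated gene, so their reads could not be mistaken for those of an antisense partner. The 220 bases before each annotated start (RefSeq, GRCm38.p6) are shown because Gjb2 and Gjb6 were both higher in the tumours than in CHR while Gjb5 was lower. They are written 5′ to 3′ on the gene's strand, and capitals mark the motifs TGANTCA (AP-1) and GGGCGG (Sp1), on either strand. The windows are chr10:56377080-56377299 for Gja1, chr14:57104703-57104922 for Gjb2, chr14:57133612-57133831 for Gjb6 and chr4:127358165-127358384 for Gjb5.
Gja1: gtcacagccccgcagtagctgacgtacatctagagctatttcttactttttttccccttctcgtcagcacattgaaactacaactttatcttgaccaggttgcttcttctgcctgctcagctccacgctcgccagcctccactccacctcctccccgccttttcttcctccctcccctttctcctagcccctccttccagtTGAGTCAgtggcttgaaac
Gjb2: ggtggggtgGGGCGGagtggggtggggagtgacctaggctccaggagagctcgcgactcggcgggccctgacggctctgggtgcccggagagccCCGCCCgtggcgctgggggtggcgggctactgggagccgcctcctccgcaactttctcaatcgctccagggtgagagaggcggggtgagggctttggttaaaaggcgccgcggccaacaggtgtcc
Gjb6: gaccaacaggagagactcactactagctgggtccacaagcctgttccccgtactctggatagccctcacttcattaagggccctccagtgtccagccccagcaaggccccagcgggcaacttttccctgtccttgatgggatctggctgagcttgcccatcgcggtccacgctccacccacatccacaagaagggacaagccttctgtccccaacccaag
Gjb5: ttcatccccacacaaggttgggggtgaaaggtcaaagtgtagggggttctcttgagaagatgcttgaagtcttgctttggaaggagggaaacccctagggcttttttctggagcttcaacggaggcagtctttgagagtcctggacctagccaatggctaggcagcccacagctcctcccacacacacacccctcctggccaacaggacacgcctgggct

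In the window from 250 bases before to 50 after the start, Gja1 held 1 AP-1 motif, 19 bases before its start. Gjb2 held 2 Sp1 motifs, 211 and 126 bases before its start, the second on the opposite strand. Gjb5 held a TATA box motif, spelled TATAAA, on the opposite strand, 243 bases before its start and so outside the printed stretch, and no match to any of the 3 motifs was found in Gjb6. Among 32851 windows of this length in the RefSeq table, TGANTCA occurred in 7.81%, GGGCGG in 35.7% and TATAAA in 13.6%. With no match in Gjb6, the neighbours Gjb2 and Gjb6 could share none of the 3 motifs, and common regulation of the pair was not tested.

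Levels are given as normalised reads, which are reads recovered from the deposited values and divided by the size factor of the library. Depth was 15.4 to 21.0 M recovered reads per library with a median of 18.9 M, and the weakest member, Gjb5, had at least 41.7 normalised reads in every library. The labelled tissue was checked against marker genes. The summed reads of 10 epithelial reference genes (Krt5, Krt14, Cdh1 and others) were at least 224670 in every library, and 0 of them were at 0 reads throughout. Markers of other cells differed between the groups, and 0 of them were at 0 reads in every library. The sum of 6 skeletal muscle genes ran from 53444 to 139290 in CHR, from 55.6 to 5312 in PAP and from 70.7 to 19699 in SCC. That of 5 immune genes ran from 31021 to 51027, from 958.6 to 7668 and from 3656 to 43137, and that of 5 dermal fibroblast genes from 63114 to 131470, from 3777 to 100340 and from 11104 to 272060. In PAP vs CHR all 6 muscle genes, all 5 immune genes and 4 of 5 fibroblast genes were called lower, as were 4 of 5 adipocyte, 3 of 5 endothelial, 4 of 5 smooth muscle and pericyte, 5 of 5 sebaceous, 2 of 5 hair follicle and 0 of 3 melanocyte genes. In SCC vs PAP, 5 of 6 muscle, 4 of 5 immune, 2 of 5 fibroblast, 2 of 5 endothelial and 5 of 5 smooth muscle and pericyte genes were called higher. Of all genes, 29.3% were called lower in PAP vs CHR and 8.75% higher in SCC vs PAP. The part of these markers in the connexin results was not tested. In bulk tissue, fewer cells of a type and less RNA per cell cannot be told apart.

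Gja1, Gjb2 and Gjb6 were higher in papillomas than in the irradiated skin of the same mice, by geometric mean ratios of 5.43, 9.56 and 8.55, while Gjb5 was lower. The carcinomas held the same pattern against CHR, with Gjb5 lower still. Between SCC and PAP none of the 4 passed the test.

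Gja1 ranged in CHR from 4332.5 normalised reads (mouse 10) to 7417 (mouse 8), with a median of 5532. In PAP it ranged from 24603 (mouse 8) to 46839 (mouse 3), median 29403, and in SCC from 10506 (mouse 7) to 38437 (mouse 3), median 24778. Every tumour of either kind lay above every CHR library, and the papillomas and carcinomas overlapped. Gja1 was also the most even member in CHR, with a coefficient of variation of 20.8%.

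Gjb2 ranged in CHR from 1195 (mouse 10) to 5939 (mouse 3) normalised reads, with a median of 2891. Its papillomas ranged from 8389 (mouse 3) to 54257 (mouse 7), median 34273, and its carcinomas from 11304 (mouse 3) to 48396 (mouse 2), median 23157. Mouse 3 stood at an edge in all 3 tissues, with the highest CHR value and the lowest value in both tumours, so that the gap between its skin and its tumours was the smallest of the 6 mice. Here too the tumours did not overlap with CHR and did overlap with each other.

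Gjb6 ranged in CHR from 251.5 (mouse 10) to 1933 (mouse 3) normalised reads, with a median of 945.9. In PAP the range was 3753 (mouse 3) to 14337 (mouse 7), median 7663. In SCC it was 3426 (mouse 8) to 13224 (mouse 10), median 4236, and the carcinomas of mice 2 and 10, at 11863 and 13224, lay far above the other 4, which held 3426 to 4283. As for Gjb2, mouse 3 was highest in CHR and lowest in PAP, and mouse 7 was highest in PAP.

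Gjb5 ranged in CHR from 365.9 (mouse 7) to 921.5 (mouse 2) normalised reads, with a median of 523.7. Its papillomas ranged from 110.3 (mouse 2) to 365.0 (mouse 7), median 286.4, and its carcinomas from 41.7 (mouse 9) to 246.2 (mouse 10), median 109.1. The highest papilloma thus came within 1 normalised read of the lowest CHR library, whereas all carcinomas lay clearly below CHR.

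**Figure D1:**
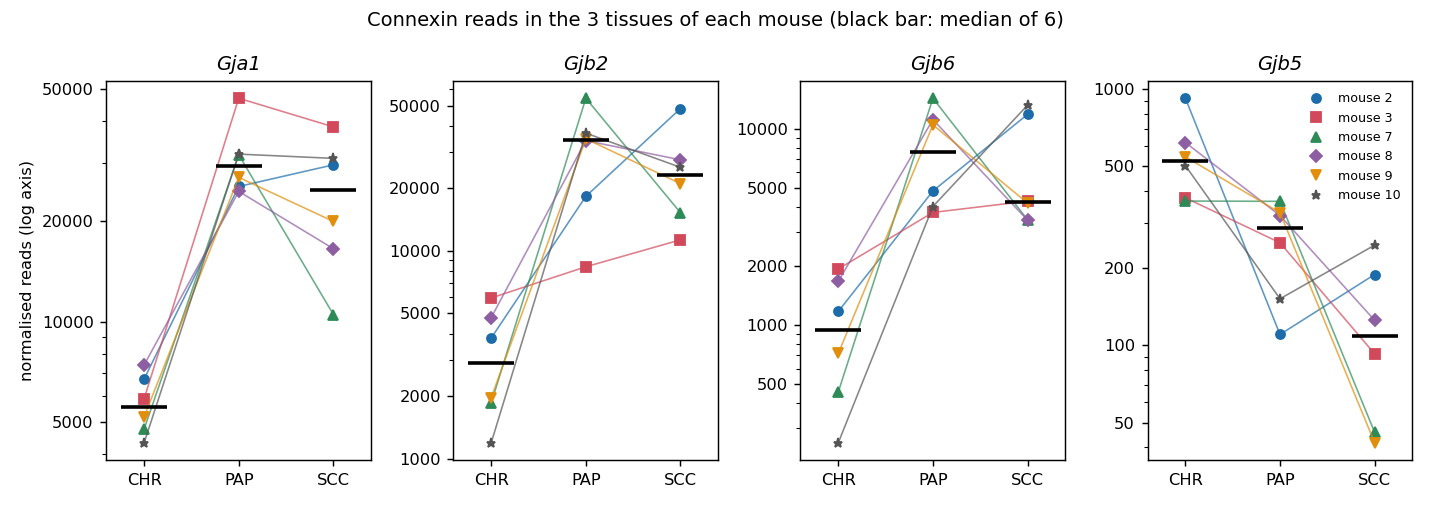
Normalised reads of Gja1, Gjb2, Gjb6 and Gjb5 (log axis, a scale of its own in each panel) in CHR, PAP and SCC, with 1 symbol and 1 line for each of 6 mice and a black bar at the median of the group. The CHR libraries of Gja1 end at 7417 and its papillomas begin at 24603, whereas for Gjb5 the papillomas end at 365.0 and the CHR libraries begin at 365.9.

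The first comparison addressed which genes change between irradiated skin and papilloma. Changes were tested with limma on log2(value + 1), with the mouse as block and Benjamini-Hochberg adjustment over 14521 genes, and a gene was called at an adjusted p under 0.05. On this scale low levels are compressed, so fold changes of weak genes are understated. Gja1 rose from 5718 ± 1188 to 31257 ± 8227 normalised reads (mean ± SD, n = 6). This was 2.42 ± 0.24 (SE) on the log2 scale (limma adjusted p = 4.1e-06). Gjb2 rose from 3258.5 ± 1881 to 31062 ± 15935, with a log2 fold change of 3.22 ± 0.49 (limma adjusted p = 0.000131). For Gjb6 the increase was from 1034 ± 675 to 8101 ± 4478, with a log2 fold change of 2.95 ± 0.55 (limma adjusted p = 0.000648). Each of the 3 was higher in 6 of 6 mice.

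Over all genes tested, 23.3% were called higher in PAP and 29.3% were called lower, and 14.4% had all 6 papillomas above all 6 CHR libraries. Against this background, 3 of 4 members were called higher and 1 lower, and the same 3 had papillomas entirely above CHR. These shares describe the members and give no test, since the genes were chosen with results of these data known.

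Normalised reads of Gjb5 fell from 555 ± 204 to 255 ± 104, a change of -0.96 ± 0.32 on the log2 scale (limma adjusted p = 0.0241). Gjb5 was lower in 6 of 6 mice. In mouse 7 the values were nearly equal, at 0.997 times the CHR level. All papillomas lay below all CHR libraries, as for 19.3% of all genes. The call rested on single mice. Without mouse 2 the log2 fold change was -0.66 with a limma adjusted p of 0.0878, and without mouse 8 it was -0.99 with a limma adjusted p of 0.0566.

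Within mice the size of the change varied most for Gjb2 and Gjb6. For Gja1 the PAP to CHR ratio ran from 3.32 (mouse 8) to 7.97 (mouse 3), with a geometric mean of 5.43. For Gjb2 it ran from 1.41 (mouse 3) to 30.9 (mouse 10), with a geometric mean of 9.56, and for Gjb6 from 1.94 (mouse 3) to 31.4 (mouse 7), with a geometric mean of 8.55. The ratio of Gjb5 ran from 0.12 (mouse 2) to 0.997 (mouse 7), with a geometric mean of 0.443. Mouse 3 therefore had the largest Gja1 ratio and the smallest ratios of Gjb2 and Gjb6. In an exact two-sided permutation test over all sign changes of the 6 log2 ratios, each of the 4 gave p = 0.0312, the smallest that 6 mice allow.

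**Figure D2:**
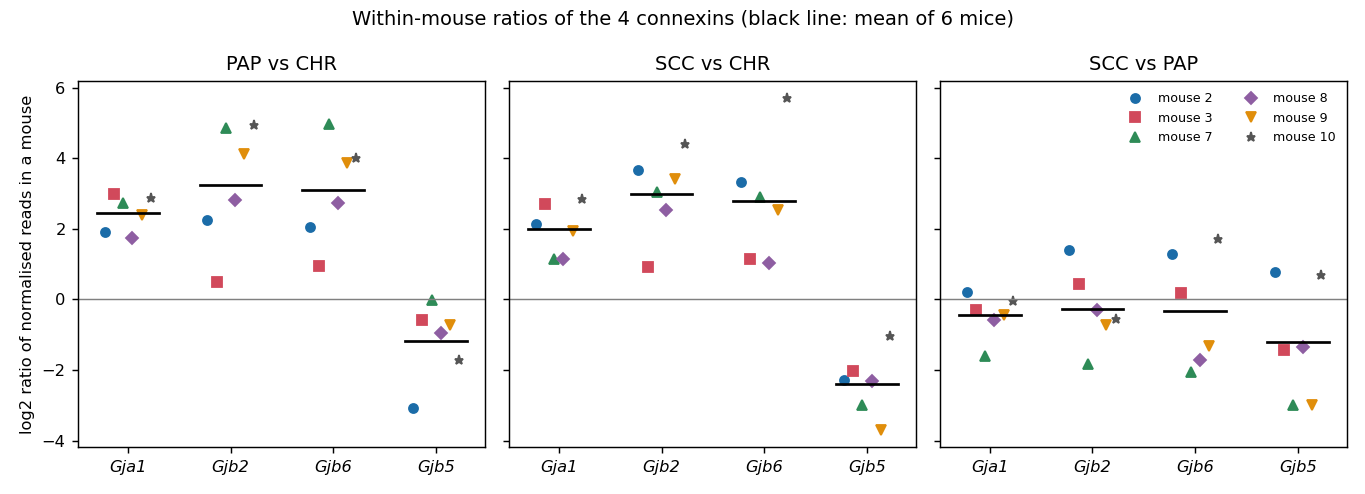
The log2 ratio of normalised reads between 2 tissues of the same mouse for each of the 4 genes, with 1 symbol a mouse and a black line at the mean of 6, for PAP vs CHR, SCC vs CHR and SCC vs PAP. Ratios of Gjb2 and Gjb6 in PAP vs CHR spread from 0.50 to 4.97, those of Gja1 from 1.73 to 2.99, and in SCC vs PAP each gene has mice on both sides of 0.

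Carcinomas were next compared with the same CHR libraries, so this comparison and the preceding one share their reference and are not independent. Gja1 reached 24329 ± 10392 normalised reads in SCC, a log2 fold change of 1.97 ± 0.24 (limma adjusted p = 6.6e-05). Gjb2 reached 24785 ± 13044, with a log2 fold change of 2.96 ± 0.49 (limma adjusted p = 0.000593). Gjb6 reached 6738 ± 4532, with a log2 fold change of 2.65 ± 0.55 (limma adjusted p = 0.00251). Gjb5 fell to 124 ± 81.3, a log2 fold change of -1.77 ± 0.32 (limma adjusted p = 0.00111).

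All 4 moved the same way in 6 of 6 mice, with an exact permutation p of 0.0312 each. Of all genes, 15.8% were called higher and 22.7% lower in SCC vs CHR, and 8.57% had non-overlapping libraries above CHR and 11.3% below. Geometric mean ratios were 3.97 for Gja1, 7.98 for Gjb2, 6.88 for Gjb6 and 0.191 for Gjb5. The widest spread was that of Gjb6, from 2.05 (mouse 8) to 52.6 (mouse 10). These 4 calls held without any single mouse.

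Carcinoma and papilloma were taken at the same time, so this comparison sets 2 kinds of lesion side by side and follows no lesion over time. Between them 0 of 4 members were called, against 8.75% of all genes called higher and 1.1% called lower in SCC. These shares rested on single mice, since limma called 0 genes without mouse 7 and 0 without mouse 8 (2450 and 2594 at an unadjusted p under 0.05). In all 4 the libraries overlapped, while they did not in 0.255% of genes that were higher and 0.158% that were lower. The log2 fold change was -0.45 for Gja1 (95% confidence interval -0.96 to 0.06, limma adjusted p = 0.262). It was -0.26 for Gjb2 (-1.31 to 0.79, limma adjusted p = 0.795) and -0.31 for Gjb6 (-1.50 to 0.88, limma adjusted p = 0.784). These intervals leave room for changes of more than 2-fold in Gjb2 and Gjb6, so the values do not show that the tumours were alike.

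For Gjb5 the log2 fold change was -0.81 (-1.51 to -0.12). The interval lies below 0, but the value did not pass adjustment over all genes (limma adjusted p = 0.136). It passed without mouse 2 (log2 fold change -1.08, limma adjusted p = 0.048) and without mouse 10 (-1.08, limma adjusted p = 0.0484), the only mice in which Gjb5 was higher in the carcinoma than in the papilloma, at 1.71 and 1.62 times. In the other 4 mice it was 0.126 to 0.39 times the papilloma level. Over all mice, Gja1 was higher in SCC in 1 of 6 mice, Gjb2 in 2, Gjb5 in 2 and Gjb6 in 3, and exact permutation p-values were 0.0938, 0.594, 0.188 and 0.625.

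Mouse 7 had the lowest SCC to PAP ratio in all 4 genes, at 0.332 for Gja1, 0.281 for Gjb2, 0.24 for Gjb6 and 0.126 for Gjb5. Its carcinoma also had the lowest sum of epithelial reference genes of the 18 libraries (224670 normalised reads, against 1093200 in its papilloma) and the highest immune sum of the carcinomas (43137). The part of this in the ratios was not tested. Without mouse 7 the log2 fold changes of Gjb2 and Gjb6 turned to 0.05 and 0.04. Taken relative to the 10 epithelial reference genes of the same library, a scaling that shifts the median of all genes by 0.59 in this comparison, the values were 0.16 for Gja1, 0.35 for Gjb2, 0.30 for Gjb6 and -0.20 for Gjb5, so that the sign of the first 3 was turned.

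The low libraries of Gjb5 were not those of the same mice in the 2 tumours. Among papillomas, mice 2 and 10 were lowest, at 110 and 152 normalised reads, and among carcinomas mice 7 and 9 were lowest, at 45.8 and 41.7.

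The other 5 connexins described here were weak. Gja5, which encodes connexin 40 of arterial endothelium, stood at 65.6 ± 23.7 in CHR and 60.0 ± 37.8 in PAP (not called) and was higher in SCC at 146 ± 49.3, with a log2 fold change of 0.71 against CHR (limma adjusted p = 0.0185) and 0.88 against PAP (limma adjusted p = 0.0242, but 0.106 in a fit of these 2 groups alone). Gja6 was lower in SCC than in CHR, at 6.03 against 14.0 reads (log2 fold change -0.30, limma adjusted p = 0.0384). The annotated spans of Gja5 and Gja6 overlap other genes, so reads could be shared. Limma with the mouse as block did not call Gja4, Gjb1 or Gjc1 in any comparison, with log2 fold changes between -0.53 and 0.66. Gjc1 was near the threshold, with an adjusted p of 0.0463 by limma-voom in SCC vs PAP and of 0.0448 by limma on PAP and CHR alone. In PAP vs CHR limma called 0 of these 5, with 0 at an unadjusted p under 0.05, and limma-voom also called 0.

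Pannexins form channels of similar build that rarely dock with a neighbouring cell, and 2 of 3 were measured. Panx1 rose from 700 ± 143 to 1211 ± 275 normalised reads in PAP (log2 fold change 0.72, limma adjusted p = 0.0132). Relative to the epithelial genes, a scaling that shifts the median of all genes by -0.93 here, its value was -0.22. It stood at 869 ± 282 in SCC (not called). Panx3, a pannexin of skin, cartilage and bone, fell from 210 ± 105 to 2.19 ± 2.34 in PAP (log2 fold change -2.46, limma adjusted p = 2.32e-06) and to 7.95 ± 8.4 in SCC (-2.24, limma adjusted p = 2.21e-05).

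**Figure D3:**
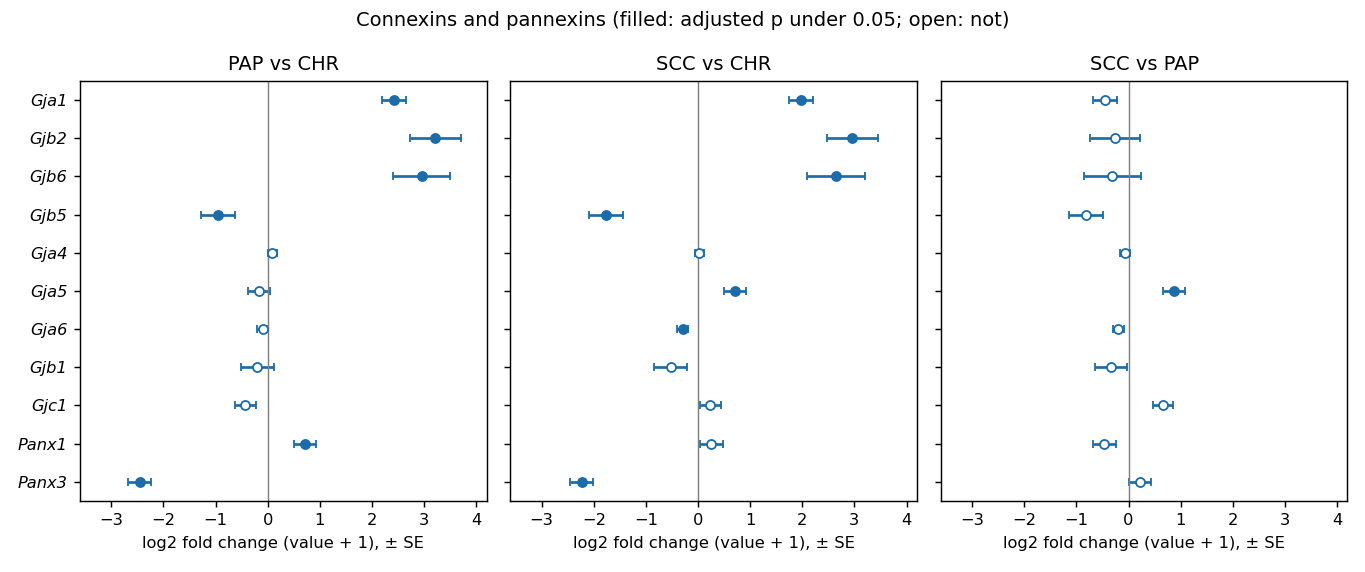
The log2 fold change with its SE for 9 connexins and 2 pannexins in the 3 comparisons (limma, n = 6 a group), where filled circles mark an adjusted p under 0.05 and open circles do not. Gja1, Gjb2 and Gjb6 lie at 1.97 to 3.22 against CHR, Gjb5 lies at -0.96 and -1.77, and between SCC and PAP the filled circle is that of Gja5.

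Levels between genes can be compared only per length. Per kb of the union of annotated exons, the mean level in CHR was 1354 ± 782 normalised reads for Gjb2, 557 ± 116 for Gja1, 387 ± 253 for Gjb6 and 323 ± 119 for Gjb5 (mean ± SD, n = 6), and the ranges of neighbours in this order overlapped. In PAP, Gjb2 stood at 12910 ± 6623, Gja1 at 3047 ± 802, Gjb6 at 3030 ± 1675 and Gjb5 at 148 ± 60.2. In SCC, Gjb2 stood at 10301 ± 5421, Gjb6 at 2520 ± 1695, Gja1 at 2372 ± 1013 and Gjb5 at 71.8 ± 47.2. Gja1 and Gjb6 thus changed places between the tumours, but lay within their spread in both. Gjb5 had the lowest mean in each tissue. In CHR its range overlapped with those of Gjb6, Gja1 and Gjb2, and in both tumours it did not meet that of any other member.

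The place of Gja1 depends on the length taken, because its union of exons (10257 bases) is far longer than its longest coding transcript (3182 bases). Per kb of the latter, a measure chosen after the data were seen, Gja1 stood at 1797 ± 373 in CHR, 9823 ± 2585 in PAP and 7646 ± 3266 in SCC, above Gjb6 in each tissue and level with Gjb2 in CHR within their spread. Of the summed reads per kb of union exons over the 4 genes, Gjb5 held 14.0% ± 5.92 in CHR, 0.83% ± 0.387 in PAP and 0.452% ± 0.2 in SCC (SD, n = 6). Per coding transcript these shares were 8.78%, 0.551% and 0.319%, so the direction did not depend on the length. Gjb2 held 48.9% ± 8.37 in CHR, 64.0% ± 14.3 in PAP and 66.6% ± 12.4 in SCC per union exons, and 31.9%, 45.9% and 48.5% per coding transcript. The share of Gjb6 stayed between 13.4% and 15.8% in the 3 tissues per union exons, within its spread.

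Libraries in which one member was high also differed for the others. As a description over 18 libraries, which share mice and groups, the Pearson correlation of log2(value + 1) was 0.943 for Gjb2 with Gjb6, and 0.785 after group means were subtracted. For Gja1 with Gjb2 it was 0.822, but 0.06 after subtraction, so that little of the relation was left within the groups. Gjb5 with Gjb6 gave -0.40 over all libraries and 0.608 after subtraction.

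Among 11616 genes with a mean of at least 100 normalised reads, the profile most like that of Gja1 was that of Kif14, a mitotic kinesin (r = 0.957), followed by Itga6, the basal integrin subunit (0.945), and Naa35 (0.942). For Gjb2 these were Gjb6 (0.943), the cornified envelope precursor gene Sprr1b (0.934) and the ribonucleotide reductase gene Rrm2 (0.924). For Gjb6 they were the epidermal transglutaminase gene Tgm3 (0.948), Gjb2 (0.943) and the fatty acid binding protein gene Fabp5 (0.937). For Gjb5 they included Acad9 (0.968) and Hrnr, which encodes hornerin of the granular layer (0.963).

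With group means subtracted, so that the differences between single libraries of a group remain, the lists changed. Gja1 was then most like Fgfr2 (0.882), the receptor for keratinocyte growth factor, Aknad1 (0.866) and Kif14 (0.846). Gjb2 was most like Lypd3 (0.825), Krt6b (0.816) and Itprip (0.812), and Gjb6 was most like Fabp5 (0.901), Rptn (0.869) and Dsc1 (0.858), the last pair being genes of the upper epidermis. Gjb5 was most like Rora (0.951), Hyal4 (0.944) and the late cornified envelope gene Lce1c (0.944).

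Genes that mark epidermal layers changed beside the connexins. Of 7 basal layer genes 5 were called higher in PAP vs CHR, with a median log2 fold change of 1.96 over the list, and the largest values were those of Lamb3 (2.33, limma adjusted p = 2.42e-05) and Itgb4 (2.05, limma adjusted p = 1.14e-06). All 4 hyperproliferative keratins were called higher, with a median of 1.97, led by Krt6b (2.66, limma adjusted p = 0.00436) and Krt6a (2.15, limma adjusted p = 0.000148). Of 10 epithelial reference genes 7 were called higher, with a median of 0.82, led by Krt14 (1.76, limma adjusted p = 0.000296) and Krt5 (1.61, limma adjusted p = 0.000219). The median over all genes tested was 0.0014, and 23.3% of them were called higher.

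Few spinous and granular genes passed the test in PAP vs CHR, where 29.3% of all genes were called lower. Of 6 spinous genes 1 was called lower, Krt10 (-1.75, limma adjusted p = 0.0476, but 0.073 by limma-voom), with a list median of -0.84, and Krt1 stood at -1.67 (limma adjusted p = 0.146). Of 6 measured granular and cornified genes 2 were called lower, Flg2 (-3.83, limma adjusted p = 0.00135) and Hrnr (-1.98, limma adjusted p = 0.0144), with a list median of -1.13. In SCC vs CHR the counts were 5 of 7 basal genes, 2 of 4 hyperproliferative keratins and 4 of 10 epithelial genes higher, and 4 of 6 spinous and 3 of 6 granular genes lower. Of all genes, 15.8% were called higher and 22.7% lower there. In SCC vs PAP, 2 of 10 epithelial genes were called lower and none of the other 4 layer lists had a call. The shares of all genes were 8.75% higher and 1.1% lower in SCC vs PAP.

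**Figure D4:**
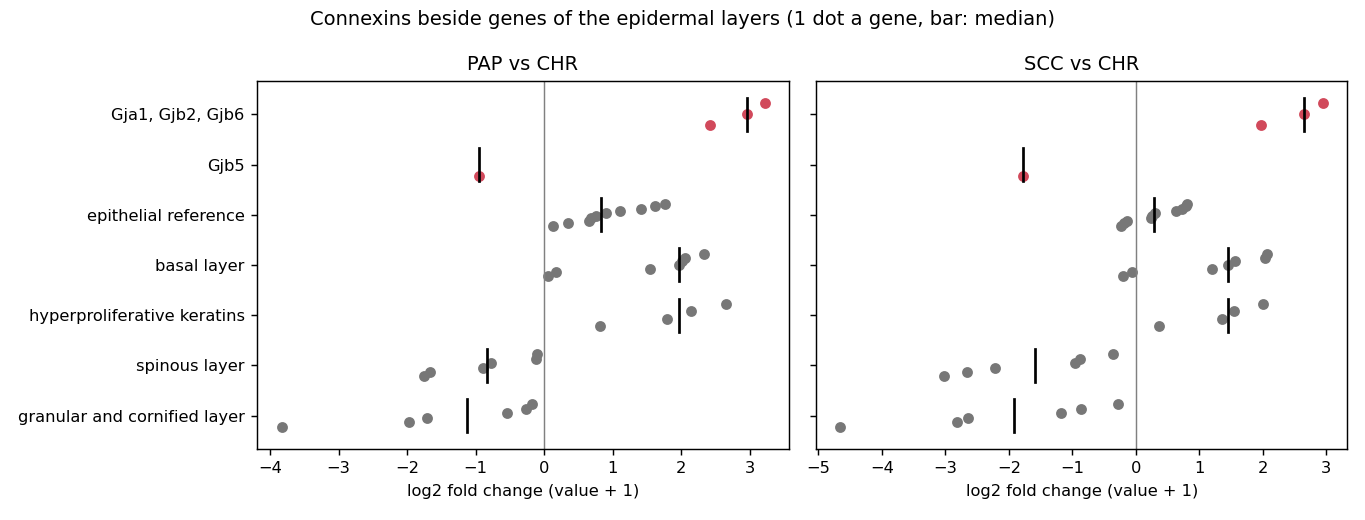
The log2 fold change of single genes (1 dot a gene, with a black bar at the median) in both tumours against CHR, for the 4 connexins in red and 5 lists of epidermal layer genes in grey. Gja1, Gjb2 and Gjb6 (2.42 to 3.22 in PAP) lie above the medians of the basal and hyperproliferative lists, which are 1.96 and 1.97, and Gjb5 (-0.96 in PAP) lies within the range of the spinous and granular lists. By range, Gja1 lies within the hyperproliferative list in PAP (Krt6b 2.66). In SCC Gja1 (1.97) lies within both lists (Itga3 2.07, Krt6b 2.01).

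Relative to the epithelial reference genes, which rose with the papillomas, the members kept their directions against CHR. On this scale, which shifts the median of all genes by -0.93 for PAP and by -0.34 for SCC, the log2 fold changes in PAP were 1.49 for Gja1, 2.28 for Gjb2, 2.02 for Gjb6 and -1.89 for Gjb5. In SCC they were 1.65, 2.63, 2.32 and -2.09.

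Of 23 genes that encode partners or regulators of connexins (scaffolds, kinases and trafficking proteins), all were measured, and 7 were called higher and 3 lower in PAP vs CHR, with a median log2 fold change of 0.15, where 23.3% of all genes were called higher and 29.3% lower. Higher, though not relative to the epithelial genes (-0.09, -0.15 and -0.58, on a scale shifted by -0.93), were Src, a kinase that phosphorylates connexin 43 (0.84, limma adjusted p = 0.00629), Cttn, which encodes an actin-binding protein of the cell cortex (0.79, limma adjusted p = 4.77e-05) and Tjp1, which encodes the ZO-1 scaffold (0.35, limma adjusted p = 0.0384, but 0.0501 on PAP and CHR alone). Lower were Nov (CCN3), whose product binds connexin 43 (-2.89, limma adjusted p = 0.000736), the drebrin gene Dbn1 (-0.71, limma adjusted p = 0.0437, but 0.0545 with no block) and the kinase gene Mapk3 (-0.47, limma adjusted p = 0.00109). In SCC vs CHR 3 were called higher and 1 lower, where 15.8% of all genes were called higher and 22.7% lower. In SCC vs PAP, Nov (2.07, limma adjusted p = 0.0326) and Dbn1 (0.94, limma adjusted p = 0.0474) were called higher and none lower, where 8.75% of all genes were called higher. Both calls were lost by limma with no block (adjusted p = 0.0549 and 0.0681) and on these 2 groups alone (0.0827 and 0.0849).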

How the data were processed

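Per the paper's methods and the submitters' processing notes, the authors aligned RNA-seq reads to mm10, counted them per gene with HTSeq and variance-stabilized the scaled counts with DESeq2. The paper also describes a batch correction that set the median of every batch equal for each gene. The inversion described below assumes values without that step. The values the authors deposited are whole numbers and linear, not log, a score in which 0 reads appear as 39 and low levels are compressed. Versions and strand setting were not given in the sources used here. The 21 entries without a symbol (at most 0.241% of a library's total) were left out.

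The transformation was inverted (zero level 39.13), each value was set to the nearest whole read, and transforming these reads again gave back exactly the deposited whole number for 99.16% of values (100.0% of those under 100). At high values this criterion is weak in libraries with a large size factor, where reads lie closer together than whole numbers. It is stricter where the size factor is small. The lowest share, 95.92%, was that of the papilloma of mouse 9, which had the smallest size factor. Size factors were 0.834 to 1.178, recovered within 0.076% on simulated data. The 153 pairs of libraries shared at most 2.23% of their values, so none was a copy.

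Tests used limma 3.58.1 (R 4.3.3) on log2(value + 1), all 18 libraries in 1 fit, the mouse as block, Benjamini-Hochberg over 14521 genes, threshold 0.05. On simulated data (PAP vs CHR, 200 changed of 14521 genes) 81% of 2-fold and 98% of 4-fold genes were recovered, with 3.24% false calls. The simulated spread was the same for all genes and smaller than that of Gjb2 and Gjb6. Their coefficients of variation in PAP were 51.3% and 55.3%. In the data 52.6% of genes were called in PAP vs CHR, so the simulated rates do not carry over to these genes. The pairing comes from the animal number in the titles. Residuals of same-mouse libraries correlated at -0.245 to 0.507 (median 0.1, 18 pairs), those of different mice at -0.481 to 0.358 (median 0.0045, 90 pairs). Permutation tests (12) flipped signs of within-mouse log2 ratios.

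Named were the 4 members, connexins and pannexins, up to 3 called partners a direction with the largest change, the 2 most changed genes of each layer list, and for each member the 3 most correlated genes. The rule also names 2 genes of each cell type list, which are given here by counts and sums only. Some genes of the rule are not reported here. Members and lists were chosen with earlier results of these data known. Gene positions are from GENCODE M21, promoters from RefSeq. Alternatives were no block, limma-voom on recovered reads, a pseudocount of 10 after subtracting the zero level, a minimum of 10 reads, only the 2 groups compared, 2 other scalings, other transcript lengths and leaving out each mouse.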

Additional observations from a re-analysis of the deposited data

How the results depend on the processing

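Of 84 member fold changes under other settings, 81 kept their direction and side of the threshold, as did 66 of 72 with a mouse left out. The exceptions were in the scaling by epithelial genes for SCC vs PAP (Gja1 0.16, Gjb2 0.35, Gjb6 0.30, sign turned, none called) and in single mice. Without a mouse, the log2 fold change of Gjb5 ran from -1.15 to -0.66 in PAP vs CHR (not called without mice 2 or 8) and from -1.08 to -0.58 in SCC vs PAP (called without mice 2 or 10), that of Gjb2 in SCC vs PAP from -0.59 to 0.0521 and that of Gjb6 from -0.71 to 0.0352, positive for both without mouse 7. With no replicate block, calls of members did not change, and 810 genes in place of 1430 were called in SCC vs PAP. That count was 709 with at least 10 reads in every library, 1742 with limma-voom and 0 to 1995 without a mouse. By limma it was 0 with only these 2 groups, without mouse 7 and without mouse 8 (with an unadjusted p under 0.05 for 2830, 2450 and 2594 genes), and 471 without mouse 3. The cause was not tested. Gja1 per kb in CHR, PAP and SCC was 1470, 8037 and 6256 with its longest transcript and 1797, 9823 and 7646 with its longest coding transcript. The lowest library of any member (Gjb5) held 41.7 normalised reads. The p-values cover 6 littermates of 1 experiment.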
